A study of Mus musculus with 51 samples.

Results

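The strain difference in unirradiated blood was taken from 7 of the 51 arrays of the series, all of them cardiac blood: BALB/c replicates 1 to 4 against C57BL/6 replicates 1 to 3. The series holds 8 blood arrays, and the remaining one, C57BL/6 replicate 4, was kept out of the comparison because it carries liver transcripts. BALB/c replicate 2 carries a weaker signal of the same kind, so each result was also taken without it. All 22626 probe sets of the Affymetrix HT_MG-430A array entered the test, and 18003 of them name 1 gene each, for 11807 genes.

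The study asked which baseline features separate BALB/c females, whose mammary gland (MG) is prone to radiation-induced cancer, from the more resistant C57BL/6. Both blood groups were female mice from Harlan, 9 weeks old and never irradiated. The array names give a sham exposure of 0 cGy and a time of 10 hr for every blood array of both strains. Blood was drawn from the heart with a heparinized syringe into RNAlater, and globin RNA was removed before labelling, in both strains alike. No gene was altered in either strain, and neither group received a drug. Each array counts as 1 sample, and p-values measure the spread between these samples. The other tissue used here is the MG of sham-exposed females of both strains, with 6 BALB/c and 7 C57BL/6 arrays. These mice were 8 weeks old when the weekly sham exposures began, and their glands, with the inguinal lymph nodes removed, were taken 4 hr (3 arrays of each strain) or 1 month (3 BALB/c and 4 C57BL/6 arrays) after the last one, both times being pooled.

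Blood RNA is a mixture. Lymphocytes carry antigen receptors and MHC genes, natural killer (NK) cells carry lectin-like receptors that read MHC class I, and neutrophils and monocytes carry receptors for microbes and inflammatory signals. Red cells and platelets add globin and granule transcripts. BALB/c and C57BL/6 are inbred strains that hold different haplotypes of the MHC (H2) on chromosome 17 and of several immune gene families, among them the NK receptors, the interferon-inducible Ifi200 genes and the Trim restriction factors.

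The arrays were first read against cell markers. Over 17 measured T cell genes the mean of each array, as a log2 difference from the median of the 7 arrays, was 0.82, −0.12, 0.27 and 0.89 in BALB/c replicates 1 to 4 and −0.22, −0.16 and −0.06 in C57BL/6 replicates 1 to 3. The BALB/c arrays thus spread widely, with replicates 1 and 4 high and replicate 2 within the C57BL/6 range. Over 17 B cell genes the order was turned, with −0.58, 0.24, 0.21 and −0.56 in BALB/c against 0.07, −0.02 and 0.02 in C57BL/6. Both lists spread more within BALB/c than within C57BL/6, and replicates 1 and 4 also stood high on 33 genes of cell cycle and mitosis (0.85 and 0.66, against −0.35 and −0.29 in replicates 2 and 3). In a bulk sample fewer cells of a type and less RNA per cell cannot be told apart.

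Genes of other tissues were looked at in the same way. The liver list (24 measured genes) lay 2.19 above the median array in BALB/c replicate 2 and 0.55 above it in BALB/c replicate 3, against −0.18 to 0.03 in the other 5 arrays. Heart muscle genes lay between −0.07 and 0.14 in all 7 arrays, and endothelial genes between −0.09 and 0.06. A further list, written after the values had been seen, holds 27 measured genes known from tissue-resident macrophages, and its mean was −0.14, 0.60, 0.37 and 0.08 in BALB/c and −0.17, −0.55 and −0.18 in C57BL/6. Alox15, a lipoxygenase of peritoneal macrophages, read 11.40, 12.18, 12.13 and 11.41 in BALB/c and 11.56, 10.87 and 11.46 in C57BL/6, where the median of all values was 4.63. Prg4, the lubricating proteoglycan that such macrophages also make, read from 10.35 to 11.57 in the 7 arrays. Other members of the list were dim at their brightest probe set. Gata6 read from 4.67 to 5.22, Siglec1 from 3.48 to 3.87 and Cd163 from 3.95 to 5.49 in the 7 arrays. Some transcripts that are not typical of circulating leukocytes, such as those of Alox15 and Prg4, were thus bright in every array. Not all genes of the list were, and the source of that RNA was not tested.

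**Figure D1:**
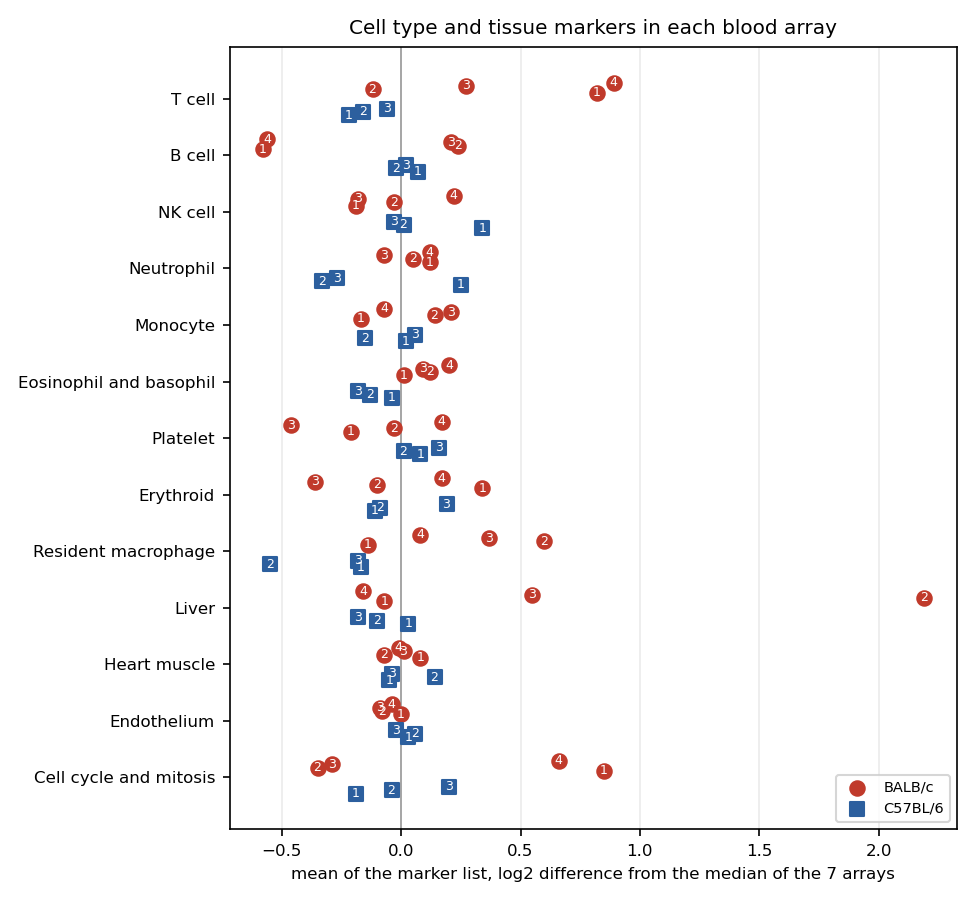
Mean of each marker list in each blood array, as the log2 difference from the median of the 7 arrays, with BALB/c as circles and C57BL/6 as squares and the replicate number in each symbol. BALB/c replicates 1 and 4 are high for T cell genes (0.82 and 0.89) and low for B cell genes (−0.58 and −0.56), and BALB/c replicate 2 is high for liver genes (2.19).

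A probe set was called where limma's p after Benjamini-Hochberg adjustment was below 0.05 and the log2 fold change exceeded 0.58 in size. By this rule 540 probe sets, 2.39% of those tested, separated the strains, 266 of them higher (1.18%) and 274 lower (1.21%) in BALB/c. They stand for 354 genes, 3.00% of the genes tested, of which 173 (1.47%) had a probe set that was higher in BALB/c and 184 (1.56%) one that was lower. With each gene at its brightest probe set, 289 genes were called (2.45%), 139 higher (1.18%) and 150 lower (1.27%). In each of the 540 probe sets the 4 BALB/c arrays and the 3 C57BL/6 arrays did not overlap, whereas 15.0% of all probe sets were apart in this way. In size, 289 of the 540 exceeded 1 log2 unit and 69 exceeded 2. Over all genes, each at its brightest probe set, the median log2 fold change was 0.00078 and the median absolute change 0.122, in values that RMA had brought to a common distribution.

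The count rested on the arrays used. It was 333 genes without BALB/c replicate 2, 285 of them shared with the full set, and it fell to 183 without C57BL/6 replicate 3, to 194 without C57BL/6 replicate 1 and to 68 when C57BL/6 replicate 4 was put back. The BALB/c arrays occupied plate columns 2 to 5 and the C57BL/6 arrays columns 6 to 8, so plate column and strain cannot be told apart, and 19 genes were called with the column as a covariate.

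**Figure D2:**
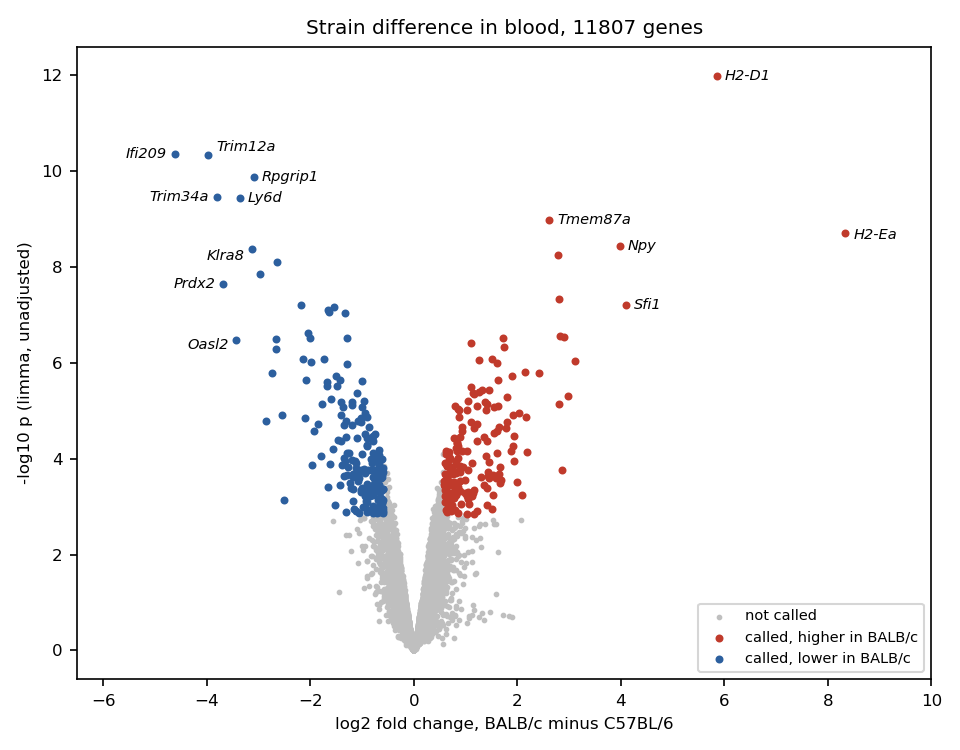
Log2 fold change (BALB/c minus C57BL/6) of 11807 genes, each at its probe set with the smallest p, against −log10 of the unadjusted limma p. H2-Ea (8.34) and H2-D1 (5.86) lie far to the right, and Ifi209 (−4.62) is the lowest.

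The 14 highest and 14 lowest genes were picked from the 285 called genes whose arrays did not overlap and which stayed called without BALB/c replicate 2. Of the 540 called probe sets, 224 stayed called in each of the 7 fits that left out 1 array. All 28 picked genes, called at adjusted p from 2.3e-08 to 0.0135, stayed called in each of these fits. They fall into genes of the H2 complex, interferon-inducible and antiviral genes, receptors and secreted proteins of immune cells, and genes with no immune role by name. They are taken here by those roles.

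**Figure D3:**
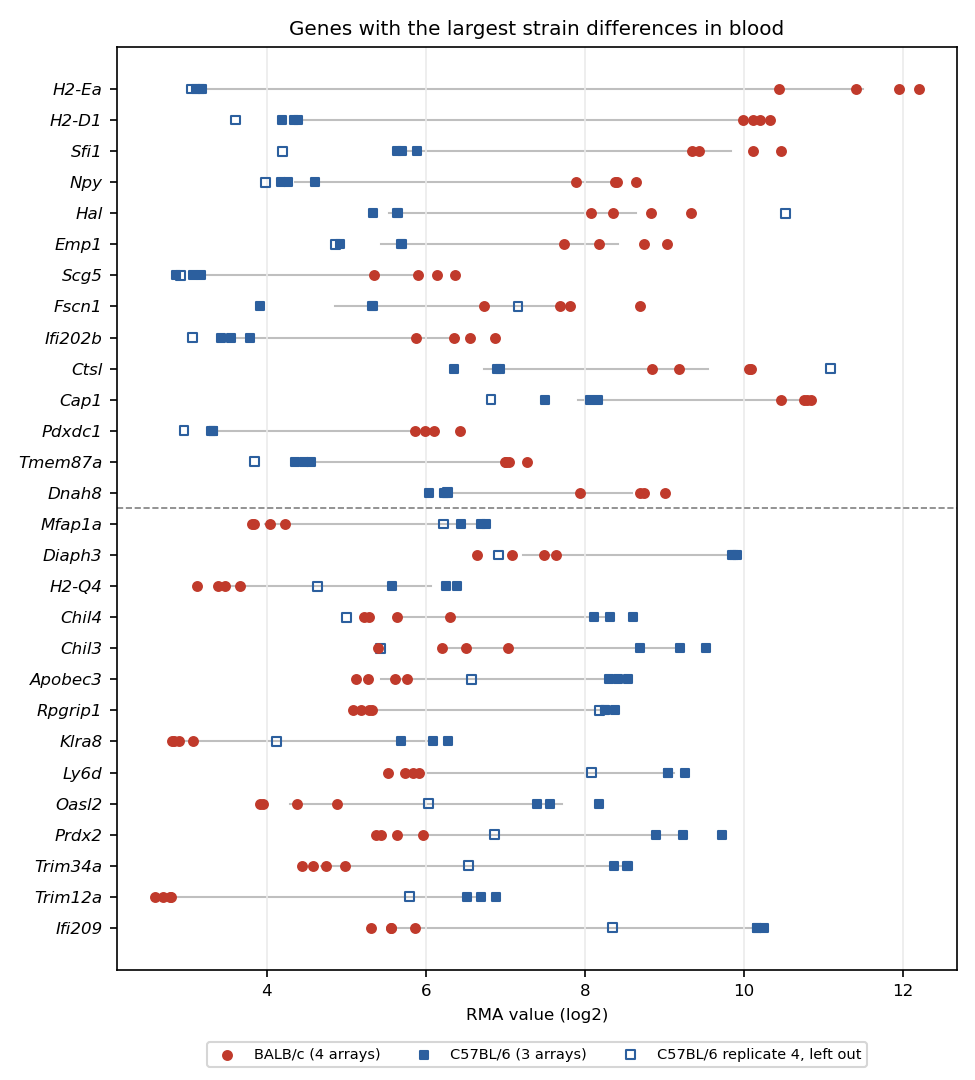
RMA values (log2) of the 28 genes with the largest strain differences in blood, with each array as a point and a line joining the group means. The BALB/c and C57BL/6 points are apart in every row, and the open square of C57BL/6 replicate 4 lies beyond the BALB/c points for Hal (10.52) and Ctsl (11.09).

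MHC class II molecules present peptides to helper T cells, and their genes lie on chromosome 17. H2-Ea encodes the alpha chain of I-E, which C57BL/6 is known to lack and BALB/c to make, so it also checks the strain labels. On its clearest probe set H2-Ea read 10.44, 12.20, 11.95 and 11.41 in BALB/c and 3.11, 3.16 and 3.19 in C57BL/6. The log2 fold change was 8.34 (SE 0.35, adjusted p = 3.4e-06), and all arrays carried the signal that their strain label calls for. No detection calls were used, and the C57BL/6 values lie among the dimmest on the arrays, so no fold is given for H2-Ea. A further probe set gave 4.89 (adjusted p = 0.000248), and the remaining one stayed near background in both strains (0.22, adjusted p = 0.325).

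The other class II genes did not follow H2-Ea. Of 15 measured members 1 was higher, 1 lower and 13 not called at the brightest probe set, with a median of −0.179. The share called was 13.3%, against 2.45% of all genes. H2-Ob, the beta chain of the inhibitor H2-O that acts on peptide loading in B cells, read 5.81, 6.48, 6.44 and 5.74 in BALB/c and 8.22, 8.05 and 8.33 in C57BL/6. It was lower in BALB/c by a log2 fold change of −2.08 (SE 0.20, adjusted p = 0.000679), with the groups well apart. Its partner chain H2-Oa had −1.06 (SE 0.27, adjusted p = 0.0839), which missed the threshold. The classical chains H2-Aa (0.21), H2-Ab1 (−0.39) and H2-Eb1 (−0.25), the invariant chain Cd74 (−0.32), the peptide exchangers H2-DMa (−0.51), H2-DMb1 (−0.18) and H2-DMb2 (−0.12), the protease Ctss (−0.11) and the regulators Ciita (−0.18), Rfx5 (−0.16), Rfxank (−0.14) and Rfxap (0.20) were not called, with adjusted p from 0.412 to 0.903. B cell genes were low in BALB/c replicates 1 and 4, as given above, and the class II list moved with them (−0.54 and −0.36 in these arrays, 0.31 and 0.20 in BALB/c replicates 2 and 3). The part of B cell content in the H2-Ob difference was not tested.

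MHC class I molecules show peptides to cytotoxic T cells and are read by NK receptors. H2-D1, a classical class I gene, read 10.20, 10.33, 10.12 and 9.99 in BALB/c and 4.39, 4.34 and 4.19 in C57BL/6. The log2 fold change was 5.86 (SE 0.11, adjusted p = 2.3e-08). A 2nd probe set gave 7.02 (adjusted p = 5.93e-08), but 3 further probe sets of the same gene gave 0.10, 0.17 and 0.12 and were not called. The probe sets thus disagreed, and since the strains hold different H2-D alleles, a strain variant under the probes and a transcript difference cannot be told apart. H2-K1, the other classical gene, was not called at any of its 4 probe sets (−0.17 to −0.29, adjusted p from 0.308 to 0.656). At its brightest the groups did not overlap, with 12.01 the highest BALB/c and 12.05 the lowest C57BL/6 value. They were also apart at a dim one (5.30 and 5.33), as were 15.0% of all probe sets.

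The nonclassical class I genes called were all lower in BALB/c. H2-Q4 read 3.39, 3.66, 3.47 and 3.12 in BALB/c and 6.39, 5.57 and 6.25 in C57BL/6, with a log2 fold change of −2.66 (SE 0.20, adjusted p = 0.00017). H2-Q10 differed by −1.59 (SE 0.17, adjusted p = 0.00136), and H2-T23, which encodes the NK ligand Qa-1, by −0.72 (adjusted p = 0.0247) at 1 of 2 probe sets. Over the 18 measured genes of class I and peptide loading, none was higher and 2 were lower at the brightest probe set (11.1%, against 2.45% of all genes), with a median of 0.125. H2-D1 is not among the 2 since its brightest probe set was even. H2-Q10 is known as a liver gene and read 11.67 in the left-out array. In BALB/c it read 4.34, 4.44, 4.31 and 4.14, highest in replicate 2, and the part of liver RNA in these values was not tested.

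Around H2 other genes of chromosome 17 differed as well. Between 35 and 40 Mb of GRCm38.p6, 7 of 61 measured genes had a called probe set (11.5%), and between 30 and 35 Mb 6 of 98 (6.12%), against 3.00% over the genome. They include C4b, a complement component (1.46, adjusted p = 0.0108), Glo1, the glyoxalase that clears methylglyoxal (1.90, adjusted p = 0.000594), and Dnah8, an axonemal dynein chain, which read 8.69, 7.94, 8.75 and 9.01 in BALB/c and 6.04, 6.25 and 6.23 in C57BL/6. Dnah8 was higher in BALB/c by 2.42 (SE 0.22, adjusted p = 0.000532), while its other probe set, dim in both strains, was even (0.07, adjusted p = 0.773). C4b lost its call without any of the C57BL/6 replicates 1, 2 or 3 (adjusted p up to 0.0564), and 1 of 3 Glo1 probe sets was even (−0.16). C4b and Glo1 were named after their values were seen. C4b read 10.81 in the left-out array, and the part of liver RNA in its difference was not tested.

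**Figure D4:**
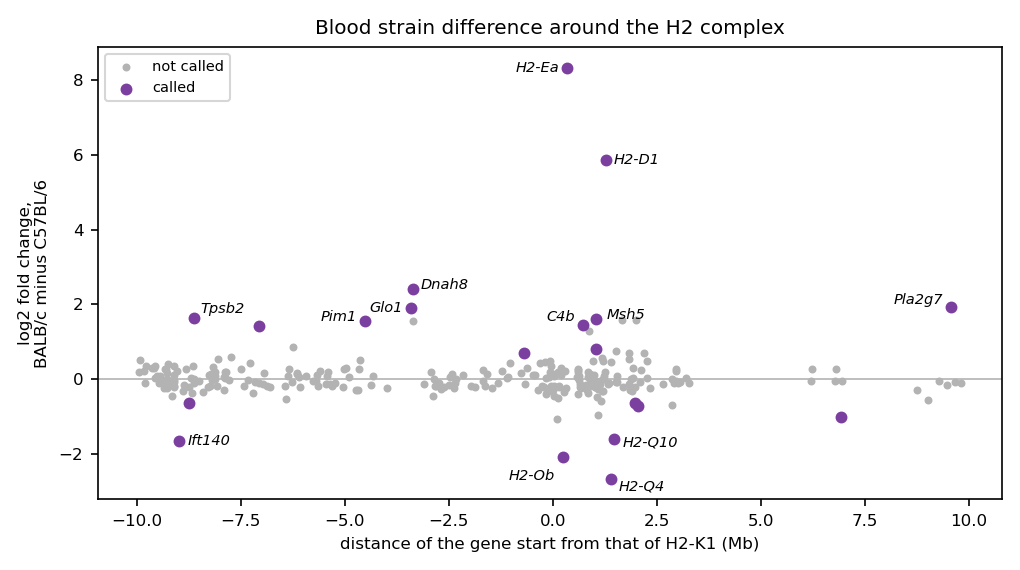
Log2 fold change in blood of the measured genes within 10 Mb of H2-K1 on chromosome 17, by distance of the gene start from that of H2-K1 in Mb, with called genes in purple. H2-Ea and H2-D1 rise above the rest, while H2-Ob (−2.08), H2-Q4 (−2.66) and H2-Q10 (−1.59) fall below.

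Interferon-inducible genes split by family. The Ifi200 genes encode sensors of cytosolic or nuclear DNA and lie together on chromosome 1. Of 5 measured members, 2 were higher in BALB/c and 1 in C57BL/6 (60%, against 2.45% of all genes). Ifi202b, which binds DNA without starting an inflammasome, read 5.88, 6.56, 6.35 and 6.87 in BALB/c and 3.43, 3.79 and 3.55 in C57BL/6. The difference was 2.83 (SE 0.21, adjusted p = 0.000168), with the groups far apart. Ifi203 followed in the same direction (1.42, SE 0.19, adjusted p = 0.00533), while its other probe set, dim in both strains, was even (−0.23).

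Ifi209 went the other way. It read 5.56, 5.31, 5.86 and 5.56 in BALB/c and 10.17, 10.25 and 10.16 in C57BL/6, and was lower in BALB/c by −4.62 (SE 0.13, adjusted p = 1.28e-07), or 24.6-fold. At its brighter probe set the difference was −0.87 (SE 0.16, adjusted p = 0.0259), and that call was lost in 5 of the 7 fits without 1 array (adjusted p up to 0.12). The size of the Ifi209 difference thus depended on the probe set, and members of this family are close in sequence, so probes may read a relative. Ifi204 (−0.51, adjusted p = 0.113) and Ifi205 (0.06, adjusted p = 0.926) were not called.

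The Trim genes of chromosome 7 form a cluster related to the antiretroviral factor Trim5. Of 7 measured Trim restriction genes, 4 were lower in BALB/c and none was higher (57.1%, against 2.45% of all genes at the brightest probe set), and the median was −0.773. Trim12a read 2.70, 2.79, 2.60 and 2.80 in BALB/c and 6.88, 6.52 and 6.69 in C57BL/6. It was lower by −3.97 (SE 0.11, adjusted p = 1.28e-07), and the groups were apart by more than 3 log2 units. The other Trim12a probe set gave −0.55 (adjusted p = 0.00751) and missed the fold minimum. Trim34a read 4.98, 4.74, 4.58 and 4.44 in BALB/c and 8.53, 8.37 and 8.54 in C57BL/6, a difference of −3.80 (SE 0.13, adjusted p = 7.31e-07). Trim30a, an interferon-inducible regulator of NF-kappaB signalling, differed by −0.77 (SE 0.12, adjusted p = 0.00987) and lost its call without C57BL/6 replicate 1 or replicate 3 (adjusted p up to 0.0603). Its other probe set, also bright, had −0.16 (adjusted p = 0.648) with overlapping groups. Trim30d differed by −1.13 (SE 0.14, adjusted p = 0.00365) at its brightest and by −1.64 (adjusted p = 5.68e-05) at its other probe set. These genes arose by duplication, and cross-hybridization between them cannot be told apart from expression of each.

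Since the 4 Trim genes were each called lower at the brightest probe set, the 100 bases before a start site of each are shown. They come from the C57BL/6J reference in RefSeq (GRCm38.p6). The stretches of Trim12a, Trim34a and Trim30d reach into the annotated gene, so a further start site lies upstream of the one used. Capitals mark a core of the interferon-stimulated response element, GAAA followed by NN (any bases) and a further GAAA, searched on both strands, so that a match on the opposite strand reads TTTC, NN and TTTC.
Trim30a, chr7:104465194-104465293, minus strand: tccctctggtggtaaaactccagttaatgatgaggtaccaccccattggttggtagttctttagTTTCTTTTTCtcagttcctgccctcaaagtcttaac
Trim30d, chr7:104507850-104507949, minus strand: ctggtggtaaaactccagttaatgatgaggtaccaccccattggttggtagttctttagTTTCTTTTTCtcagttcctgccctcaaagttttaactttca
Trim12a, chr7:104315496-104315595, minus strand: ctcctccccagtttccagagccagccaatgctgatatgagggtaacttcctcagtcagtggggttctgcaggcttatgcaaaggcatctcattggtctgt
Trim34a, chr7:104244357-104244456, plus strand: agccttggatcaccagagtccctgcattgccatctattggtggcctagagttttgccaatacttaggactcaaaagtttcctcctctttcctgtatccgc

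The Trim30a and Trim30d stretches are shifted by 5 bases and match at 94 of the 95 bases they share, with 1 motif each, 36 and 41 bases before the start. Trim12a and Trim34a hold no match in these 100 bases, although they had the larger strain differences. In the 100 bases before the start, 1.14% of 27025 genes with a promoter entry hold the motif. Over 250 bases the share was 3.46% of all these genes, 6.94% of the 144 called genes higher in BALB/c with an entry and 7.28% of the 151 lower ones, and the sequence shown is that of 1 strain only.

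Other interferon-stimulated genes moved little. Of 28 measured, none was called higher in BALB/c and 2 were called lower (7.14%, against 2.45% of all genes), with a median of −0.067. Oasl2, an oligoadenylate synthetase-like antiviral protein, read 3.92, 4.89, 3.96 and 4.38 in BALB/c and 7.40, 7.56 and 8.18 in C57BL/6. The difference was −3.43 (SE 0.26, adjusted p = 0.000171), with no overlap. Ifit3 was lower by −0.84 (SE 0.16, adjusted p = 0.0293), a call that was lost without BALB/c replicate 3 or any C57BL/6 replicate (adjusted p up to 0.126). Apobec3, a cytidine deaminase that restricts retroviruses, read 5.61, 5.12, 5.76 and 5.28 in BALB/c and 8.30, 8.54 and 8.42 in C57BL/6, and differed by −2.97 (SE 0.16, adjusted p = 1.55e-05).

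The interferon-inducible GTPases, which attack vacuoles of intracellular microbes, held calls in the other direction. Of 13 measured, 2 were higher in BALB/c (15.4%, against 2.45% of all genes) and none was lower, and the median was 0.437. Gbp2b, a guanylate-binding protein, read 6.53, 6.60, 6.72 and 6.62 in BALB/c and 5.26, 5.71 and 5.36 in C57BL/6, a difference of 1.17 (SE 0.12, adjusted p = 0.00109). Iigp1, an immunity-related GTPase, differed by 1.03 (SE 0.12, adjusted p = 0.00183) at its brighter probe set and by 0.58 (adjusted p = 0.079) at the other. The rest were not called: Gbp8 (0.65), Irgm2 (0.54), Tgtp1 (0.45), Gbp7 (0.44), Igtp (0.44), Ifi47 (0.25), Irgm1 (0.12), Gbp10 (0.05), Gbp4 (−0.14), Gbp2 (−0.25) and Gbp3 (−0.69), with adjusted p from 0.0556 to 0.871. Of these, the groups did not overlap for Gbp3, lower in BALB/c, and for Gbp7, Igtp, Irgm2 and Tgtp1, higher there. Over all genes at the brightest probe set, 15.3% were apart in this way. Iigp1 read 11.10 in the left-out array and turned to −0.54 when that array was included.

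NK cells read class I through the Klra (Ly49) and Klrc (NKG2) receptors of chromosome 6. Of 23 measured lectin receptor genes of this complex, 1 rose and 4 fell in BALB/c relative to C57BL/6 (21.7%, against 2.45% of all genes), with a median of −0.162. Klra8, which encodes the activating receptor Ly49H that C57BL/6 is known to carry and BALB/c to lack, read 2.83, 2.90, 3.07 and 2.81 in BALB/c and 6.28, 6.09 and 5.69 in C57BL/6. Its difference was −3.12 (SE 0.14, adjusted p = 6.29e-06), so Klra8, like H2-Ea, went with the strain labels in all 7 arrays. Klra7 was lower by −2.11 (SE 0.25, adjusted p = 0.00242) at 1 of 2 probe sets and Klrc3 by −0.79 (SE 0.11, adjusted p = 0.00537). Klra17 was higher, with 6.03, 6.13, 5.52 and 6.37 in BALB/c and 4.73, 4.14 and 4.32 in C57BL/6 (1.61, SE 0.21, adjusted p = 0.00384). The Klra genes differ in number between the strains and are close in sequence, so the probe sets may read relatives. Over 16 NK cell markers 1 was lower (6.25%, against 2.45% of all genes), the chemokine Xcl1 (−0.67, adjusted p = 0.0215, lost in 4 of the 7 fits without 1 array, up to 0.106). The array means of that list overlapped (−0.19 to 0.22 in BALB/c, −0.03 to 0.34 in C57BL/6).

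Among surface proteins of lymphocytes, 2 of 17 measured Ly6, Slam and Fc receptor genes were higher and 1 was lower in BALB/c (17.6%, against 2.45% of all genes). Ly6d, a surface marker of early B lineage cells, read 5.92, 5.74, 5.52 and 5.84 in BALB/c and 9.26, 9.04 and 9.05 in C57BL/6. It was lower by −3.36 (SE 0.12, adjusted p = 7.31e-07), a 10.3-fold difference. The B cell list read −0.58, 0.24, 0.21 and −0.56 in the same BALB/c arrays, and its part in the Ly6d difference was not tested. Slamf6, a T, B and NK cell receptor of the Slam family, was higher by 1.31 (SE 0.13, adjusted p = 0.000967), with 0.16 (adjusted p = 0.679) and overlapping groups at its other probe set. Lilrb4a, an inhibitory receptor of myeloid cells, was higher by 1.04 (SE 0.21, adjusted p = 0.0322) and lost its call in 5 of the 7 fits without 1 array (adjusted p up to 0.0958).

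Secreted and lysosomal proteins of myeloid cells differed in both directions. Chil3, the chitinase-like protein Ym1, read 6.51, 7.03, 6.21 and 5.40 in BALB/c and 8.70, 9.53 and 9.20 in C57BL/6, a difference of −2.86 (SE 0.35, adjusted p = 0.0027). Chil4 differed by −2.73 (adjusted p = 0.000539) on a probe set that it shares with close relatives, and is uncertain. Ctsl, the lysosomal protease cathepsin L, read 10.09, 9.19, 8.85 and 10.06 in BALB/c and 6.94, 6.36 and 6.89 in C57BL/6 and was higher by 2.81 (SE 0.31, adjusted p = 0.00155). Fscn1, an actin-bundling protein of dendritic cells, varied most within the groups: 6.73, 8.69, 7.69 and 7.81 in BALB/c and 5.34, 3.91 and 5.33 in C57BL/6 (2.87, SE 0.47, adjusted p = 0.0135), and its 3 other probe sets were even. Arg1, arginase 1 of macrophages and liver, was higher by 1.99 (SE 0.35, adjusted p = 0.0192), but it was called in 3 of the 7 fits without 1 array (adjusted p up to 0.0889) and read 12.29 in the left-out array. Pla2g7, a phospholipase that degrades platelet-activating factor, was higher by 1.93 (SE 0.26, adjusted p = 0.00469), and both were named after their values were seen.

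Genes of resident macrophages were among those called. Of the 27 measured members of the list written after the values were seen, 7 were higher and 2 were lower in BALB/c (33.3%, against 2.45% of all genes), with a median of 0.349. The higher ones were the complement receptor Vsig4 (2.09, SE 0.40), the carbonyl reductase Cbr2 (2.19, SE 0.32), the chemokine Ccl24 (1.93, SE 0.30), the ficolin Fcna (1.92, SE 0.27), the lectin Cd209b (1.81, SE 0.22), the acute-phase protein Saa3 (1.78, SE 0.22) and the complement chain C1qa (1.22, SE 0.26). Fcna read 9.80, 10.87, 10.41 and 9.91 in BALB/c and 8.46, 7.89 and 8.62 in C57BL/6. The scavenger receptor Marco, in contrast, read 3.41, 3.41, 3.24 and 3.33 in BALB/c and 4.73, 4.70 and 4.50 in C57BL/6 (−1.29, SE 0.10, adjusted p = 0.000168), and the fatty acid carrier Fabp4 differed by −1.85 (SE 0.23, adjusted p = 0.00291).

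Other members of the same list, bright in both strains, missed the threshold: Alox15 (0.49, adjusted p = 0.398), Prg4 (0.71, adjusted p = 0.139), Fn1 (0.45, adjusted p = 0.222), Icam2 (0.18, adjusted p = 0.707), Ltbp1 (0.17, adjusted p = 0.721), C1qb (0.23, adjusted p = 0.788) and C1qc (0.26, adjusted p = 0.691). For Prg4 the groups did not overlap, with 10.81 the lowest BALB/c and 10.74 the highest C57BL/6 value. Of the genes known from Kupffer cells of the liver, Clec4f read 3.31 to 3.44 in the 7 arrays and 7.21 in the left-out array, whereas Cd5l was bright, with 8.04, 9.13, 8.86 and 7.98 in BALB/c and 9.65, 9.00 and 9.59 in C57BL/6 (−0.91, adjusted p = 0.175). Vsig4 and C1qa lost their calls in 4 and 6 of the 7 fits without 1 array (adjusted p up to 0.11 and 0.146), and the part of macrophage content in these differences was not tested. The count of called genes was 344 with the members of the liver and macrophage lists taken out.

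Markers of circulating myeloid cells were mostly level. The shares called were 11.1% of the neutrophil, 6.67% of the monocyte and 11.1% of the eosinophil and basophil list. Pattern recognition had 10% and chemokines with their receptors 8.33%, against 2.45% of all genes. Of 18 neutrophil genes 2 were higher, the formyl peptide receptor Fpr2, with 8.08, 8.64, 8.23 and 8.17 in BALB/c and 7.13, 6.67 and 6.85 in C57BL/6 (1.40, SE 0.16, adjusted p = 0.00183), and the lectin Clec4d (0.86, adjusted p = 0.0477), whose call held in 1 of the 7 fits without 1 array (adjusted p up to 0.147). Of 15 monocyte genes 1 was lower, the fractalkine receptor Cx3cr1 (−0.78, SE 0.11, adjusted p = 0.00809, and 0.0512 without C57BL/6 replicate 1). The mast cell and basophil protease Cpa3 was higher by 1.64 (SE 0.21, adjusted p = 0.00336), the 1 gene called of 9 on the eosinophil and basophil list. Of 20 genes of pattern recognition, Tlr6, a receptor for bacterial lipopeptides, was higher (0.93, SE 0.12, adjusted p = 0.00386) and the inflammasome adaptor Pycard lower (−0.71, adjusted p = 0.0453), the latter called in 1 of the 7 fits without 1 array (adjusted p up to 0.18). Of 24 chemokine genes and receptors 2 were lower, Cx3cr1 and Xcl1, and none was higher.

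The T cell list had a median of 0.685, and all 17 measured members had a positive log2 fold change, but 1 passed the test (5.88%, against 2.45% of all genes). This was Lef1, a transcription factor of naive T cells, with 5.95, 5.77, 6.11 and 6.34 in BALB/c and 5.56, 5.11 and 5.31 in C57BL/6 (0.72, SE 0.16, adjusted p = 0.0456), and it was called in 1 of the 7 fits without 1 array (adjusted p up to 0.168). None of the 17 B cell genes was called at its brightest probe set (median −0.218), none of the 33 cell cycle genes (median 0.213) and none of the 14 heart muscle or 8 endothelial genes (medians −0.029 and −0.065). At the brightest probe sets the smallest p of the B cell list belonged to Ighm, the heavy chain of IgM, with 0.87 (adjusted p = 0.236). Ighm was the 1 member of that list with a positive log2 fold change, and the other 16 were negative. At another probe set Ebf1, a transcription factor of early B cells named after its values were seen, was lower (−1.1), with −0.22 at its brightest. Of the 24 measured genes of the liver list 1 was called (4.17%, against 2.45% of all genes), the iron carrier transferrin (Trf). It read 10.87, 11.72, 11.65 and 11.22 in BALB/c and 9.93, 9.33 and 10.03 in C57BL/6 (1.61, SE 0.24, adjusted p = 0.00815). The liver list read −0.07, 2.19, 0.55 and −0.16 in the same BALB/c arrays, and the part of liver RNA in the Trf difference was not tested. Of 13 platelet genes 1 was called (7.69%, against 2.45% of all genes), the glycoprotein Gp9, which was lower (−0.99, SE 0.18, adjusted p = 0.0238). The call was lost without any of the C57BL/6 replicates 1 to 3 (adjusted p up to 0.107).

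Redox and heme genes of red cells and leukocytes held several called members without a common direction. At the brightest probe set 12.5% of the antioxidant list was called, against 2.45% of all genes. Gsr, glutathione reductase, read 6.27, 6.16, 6.11 and 6.45 in BALB/c and 8.31, 7.76 and 7.87 in C57BL/6. It was lower by −1.74 (SE 0.15, adjusted p = 0.000336), and its other probe set by −1.19 (adjusted p = 0.0188, lost in 3 of the 7 fits without 1 array, up to 0.0958). Of 24 antioxidant genes, the thioltransferase Glrx was higher (1.56, SE 0.19, adjusted p = 0.0027) and Gclm, the modifier subunit of glutathione synthesis, lower (−1.15, adjusted p = 0.0435, called in 2 of the 7 fits without 1 array, adjusted p up to 0.18). Prdx2, the peroxiredoxin of red cells, read 5.64, 5.38, 5.44 and 5.96 in BALB/c and 9.23, 8.90 and 9.72 in C57BL/6 on 1 probe set (−3.68, SE 0.20, adjusted p = 2.34e-05), while its brighter probe set had −0.32 (adjusted p = 0.572). The mitochondrial Prdx3 had −0.54 (adjusted p = 0.0877).

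In heme and iron metabolism 2 of 19 genes were called (10.5%, against 2.45% of all genes). Alad, the 2nd enzyme of heme synthesis, read 6.62, 7.09, 6.58 and 6.56 in BALB/c and 5.05, 5.06 and 5.19 in C57BL/6 (1.61, SE 0.14, adjusted p = 0.000355). Blvrb, biliverdin reductase B of red cells, was lower by −1.79 (SE 0.27, adjusted p = 0.00887) and missed the threshold without C57BL/6 replicate 1 or replicate 3 (adjusted p up to 0.0505). None of the 22 erythroid genes was called at its brightest probe set (median 0.049), and at another probe set the membrane protein Epb42, named after its values were seen, was lower (−2.5, adjusted p = 0.0337, with −1.37 at the brightest). The alpha globin gene Hba-a1 had −0.11 and 0.00 at 2 probe sets and 1.11 (adjusted p = 0.000191) at the remaining one, in RNA from which globin had been removed. None of 14 heat shock and chaperone genes was called (median 0.195).

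Of the genes with no immune role by name, several were much brighter in BALB/c blood. Npy, the peptide transmitter neuropeptide Y, read 8.41, 8.38, 7.89 and 8.64 in BALB/c and 4.18, 4.61 and 4.27 in C57BL/6. The difference was 3.98 (SE 0.18, adjusted p = 5.84e-06). Scg5, a chaperone of prohormone processing, read 5.90, 5.35, 6.37 and 6.14 in BALB/c and 3.07, 3.18 and 2.86 in C57BL/6 (2.91, SE 0.22, adjusted p = 0.000168). Emp1, a tetraspan membrane protein, read 7.74, 9.03, 8.74 and 8.18 against 5.70, 4.92 and 5.69 (2.98, SE 0.31, adjusted p = 0.00119). In each of these genes the lowest BALB/c array stood above the highest C57BL/6 array by more than 2 log2 units.

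Cytoskeletal and metabolic genes followed. Sfi1, a centrin-binding protein of the centrosome, read 9.35, 10.12, 10.47 and 9.43 in BALB/c and 5.89, 5.64 and 5.70 in C57BL/6 (4.10, SE 0.26, adjusted p = 4.92e-05). Its other probe sets gave 1.85 (adjusted p = 0.00751) and 0.46 (adjusted p = 0.433), the latter with overlapping groups. Cap1, a regulator of actin turnover, was higher at both of its probe sets (2.81 and 2.85, adjusted p = 4.13e-05 and 0.00061). Diaph3, a formin that builds actin filaments, read 7.49, 7.09, 6.65 and 7.64 in BALB/c and 9.85, 9.87 and 9.91 in C57BL/6, a difference of −2.66 (SE 0.21, adjusted p = 0.000232). Hal, histidine ammonia-lyase, was higher by 3.11 (SE 0.27, adjusted p = 0.000345), and the membrane protein Tmem87a by 2.62 (SE 0.10, adjusted p = 1.98e-06). Hal read 8.08, 9.34, 8.83 and 8.35 in BALB/c and 10.52 in the left-out array. The part of liver RNA in the Hal difference was not tested.

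Probe sets of some of these genes gave opposite answers. Pdxdc1, a decarboxylase-like protein, was higher in BALB/c at 1 probe set (2.78, adjusted p = 6.93e-06), lower at another (−2.17, adjusted p = 5.17e-05) and not called at the remaining one (−0.29). Mfap1a, a splicing factor, was lower at all 3 of its probe sets (−2.64, −1.20 and −3.12). Rpgrip1, a protein of the photoreceptor cilium, was lower at 1 of 4 (−3.08, SE 0.10, adjusted p = 3.31e-07). Of the 354 called genes 180 have more than 1 probe set, and in 31 of these all probe sets were called, while in 120 a single one was. A strain variant under the probes and a difference in transcript level cannot be told apart from these values.

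For DNA repair and RNA processing genes, which the study drew attention to, the share called depended on the probe sets read. At the brightest probe set 1 of 56 DNA repair genes was called (1.79%, against 2.45% of all genes), with a median of 0.089, and 1 of 49 RNA processing genes (2.04%), with a median of 0.111. At any probe set it was 3 of 56 (5.36%) and 6 of 49 (12.2%), against 3.00% of all genes. The study had put forward these 3 repair genes, and all 6 RNA processing genes but Srsf2, from arrays of this series. The shares are thus not independent evidence. For each of the called repair genes the study also reports quantitative PCR in blood, in the same direction as the array calls given below. Those PCR values were not analysed here. Smc6, a subunit of the SMC5/6 complex that handles recombination intermediates, read 7.15, 8.36, 8.16 and 7.95 in BALB/c and 5.92, 5.73 and 5.55 in C57BL/6 (2.17, SE 0.26, adjusted p = 0.00232). Its dimmer probe set gave 0.70 (adjusted p = 0.0121, and up to 0.066 without C57BL/6 replicate 1 or replicate 3). Ppih, a cyclophilin of the spliceosome, was higher by 1.06 (SE 0.16, adjusted p = 0.00883). The 5 further RNA processing genes were called at probe sets other than the brightest: the splicing factor Rbm39 (1.36, at 4 of 7 probe sets), the poly(A) polymerase Papola (1.17), the exoribonuclease Pnpt1 (0.85) and the splicing factor Srsf2 (0.72) were higher, and the spliceosome protein Txnl4a (−0.73) was lower. These 5 were named after their values were seen, and their brightest probe sets read from −0.42 to 0.54.

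At other probe sets 2 further repair genes were called. Parp3, an ADP-ribosyltransferase of strand-break repair, read 4.76, 5.01, 4.93 and 4.75 in BALB/c and 7.18, 6.42 and 6.98 in C57BL/6 (−1.99, SE 0.17, adjusted p = 0.00035), with −0.85 (adjusted p = 0.101) at the brighter probe set. Msh5, a meiotic MutS homolog that lies in the H2 complex, read 4.78, 5.50, 5.48 and 4.96 against 3.55, 3.59 and 3.55 (1.62, SE 0.18, adjusted p = 0.00163). Its brightest probe set had 0.43 (adjusted p = 0.221) with overlapping groups. A pair of transcription regulators that the study names were lower in BALB/c: Runx1 by −1.18 (SE 0.20, adjusted p = 0.0153) at 1 of 5 probe sets, a call lost without C57BL/6 replicate 1 or replicate 3 (adjusted p up to 0.0823), and Cbx7 by −1.20 (SE 0.13, adjusted p = 0.00158). Of 46 measured baseline genes that the study tied to outcome, 33 had a called probe set (71.7%, against 3.00% of all genes). That list was chosen by the study on these arrays and is not independent evidence. Of 9 measured genes with alleles known to differ between the strains, 3 were called at the brightest probe set (33.3%, against 2.45% of all genes). These were H2-Ea, Klra8 and Gbp2b.

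Called genes lay on all autosomes and on X. The share of located genes called ran from 1.26% on chromosome 16 and 1.27% on X to 4.75% on chromosome 12 and 4.86% on chromosome 17. In windows of 5 Mb, 207 of the 528 windows with a measured gene held a called gene and 16 held 4 or more. Several of these windows hold gene families described above. Chromosome 7 from 100 to 105 Mb had 6 of 52 genes (11.5%), the 4 Trim genes with the embryonic globin Hbb-y and the phosphatase methylesterase Ppme1. Chromosome 6 had 6 of 55 from 125 to 130 Mb and 4 of 17 from 130 to 135 Mb, with Klra and Klrc genes in both. Chromosome 1 had 6 of 60 from 170 to 175 Mb, the 3 Ifi200 genes with Slamf6, Igsf8 and Pcp4l1.

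The strain difference in blood was then set against that of the sham MG. There the BALB/c and C57BL/6 arrays came from plates of their own, so plate and strain cannot be told apart, and levels were not compared across tissues. The difference of the differences was tested in 1 fit over both tissues, and 475 genes (4.02%) differed between tissues in this sense, with 3.09% of probe sets called. With the glands of 4 hr alone 336 genes differed, and with those of 1 month alone 347. In the sham MG alone 453 genes (3.84%) were called between the strains. Of the 353 genes called in blood at the probe set with the smallest p, 188 also differed between tissues, and 166 had an MG difference below 0.25 in size. At the same probe set and in the same direction, 95 of the 354 genes were called in the MG too, and 6 were called there in the opposite direction (Arg2, Gsr, Iigp1, Jchain, Phyh and Vti1b).

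Npy, Scg5, Emp1, Fscn1, Ctsl and Dnah8 were higher in BALB/c blood but nearly level in the MG, where their differences were −0.03, 0.10, −0.22, 0.16, 0.23 and 0.17. For Npy the difference between tissues was 4.01 (adjusted p = 4.18e-10). Ly6d, Klra8, Chil3 and Diaph3, lower in BALB/c blood, had −0.00, −0.25, −0.12 and −0.47 in the MG. Oasl2 had −0.56 there (adjusted p = 0.487), and its difference between tissues passed (−2.87, adjusted p = 0.0172). H2-Ob was lower in BALB/c blood and level in the MG (−0.09, difference between tissues −1.99, adjusted p = 2.29e-06). All of these differed between tissues. Whether each gene was detected in the MG was not tested, so even expression and lack of signal there cannot be told apart.

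Other genes had values close to each other in both tissues. Cap1 had 2.81 in blood and 2.57 in the MG, Parp3 −1.99 and −1.92, and Alad 1.61 and 1.71, and the difference between tissues did not pass the test for any of these 3 (adjusted p from 0.595 to 0.889). Sfi1 had 4.10 and 3.96 at 1 probe set (adjusted p = 0.822), but 1.85 and 3.40 at another, where the tissues differed (−1.55, adjusted p = 0.00197). Apobec3 had −2.97 and −2.27 (adjusted p = 0.192). A few differences were larger in the MG: Gbp2b with 1.17 against 3.86, Hal with 3.11 against 4.83, Rpgrip1 with −3.08 against −4.57 and H2-Q10 with −1.59 against −5.07, each of them past the test between tissues. Gsr turned, with −1.74 in blood and 0.37 in the MG (adjusted p = 9.92e-06 between tissues).

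**Figure D5:**
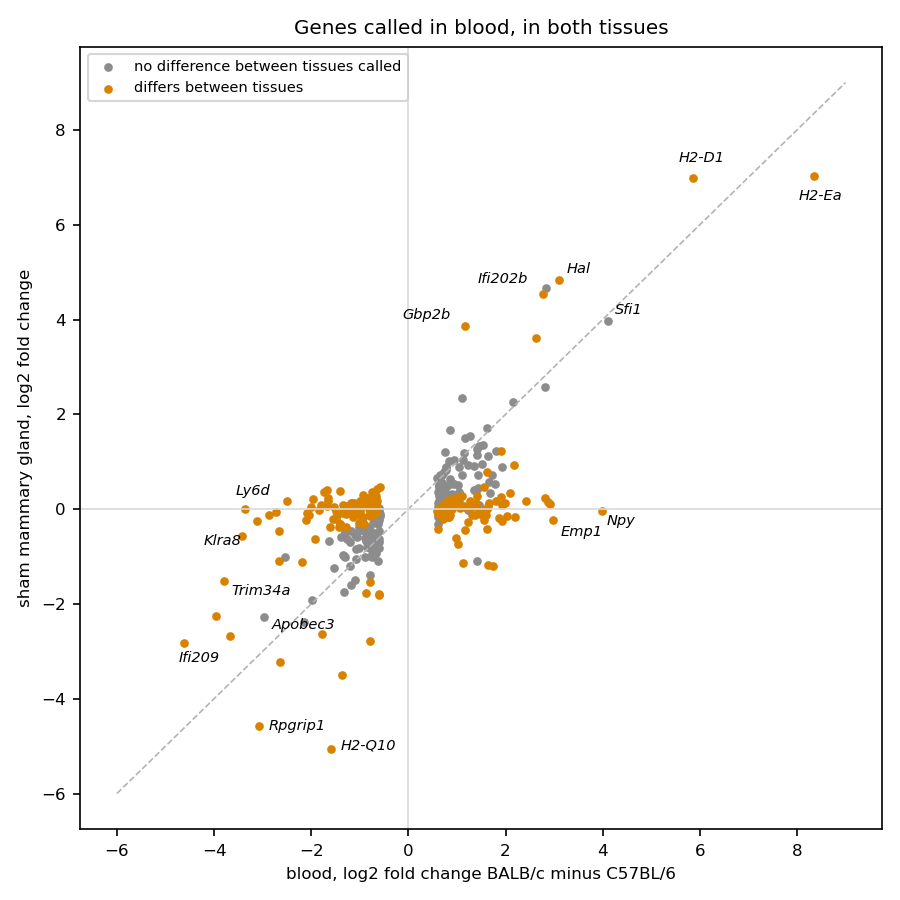
Log2 fold change (BALB/c minus C57BL/6) in blood against that in the sham MG for 353 genes called in blood, with genes that differ between tissues in orange and the dashed line marking equal differences. Npy and Ly6d lie on the horizontal zero line, Sfi1 near the dashed line, and H2-Q10 and Rpgrip1 below it.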

How the data were processed

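Gene expression was measured with Affymetrix HT_MG-430A arrays in cardiac blood and MG. The authors normalized the arrays with RMA, and the deposited values are log2 expression values per probe set, used as deposited. The submitters' processing notes name RMA and limma without versions. Groups were taken from the sample labels. Of 22626 probe sets 18003 carried 1 gene symbol, 287 several and 4336 none, and gene positions came from a RefSeq table (GRCm38.p6).

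Group means were fitted with limma 3.58.1 in R 4.3.3 (lmFit and eBayes) over 4 BALB/c and 3 C57BL/6 blood arrays, with Benjamini-Hochberg adjustment over all probe sets. Positive log2 fold changes are higher in BALB/c. Calls needed an adjusted p below 0.05 with a log2 fold change over 0.58 in size, and a gene was called when any of its probe sets was. Gene lists were read at the brightest probe set and named genes at the one with the smallest p. Blood and MG values have different distributions, so levels were compared only within a tissue. The contrast with the sham MG was the difference of the 2 strain differences in 1 fit. The median standard error was 0.118 with 5 residual degrees of freedom, and the number of arrays limits precision.

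Named genes were the 14 highest and 14 lowest called genes without overlap that stayed called without BALB/c replicate 2, up to 4 members of each list, by p, those genes analysed here that the study names for the baseline difference, and every measured member of 3 families. The comparison, its members and the gene lists were chosen with earlier results of these data known. The resident macrophage list was written after its values had been seen, as was the alternative that leaves its members out.

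In data simulated for the blood comparison, with 22626 probe sets, the fit recovered 81% of probe sets changed by 1 log2 unit, 98% of those changed by 2 and 100% of those changed by 4. Alternatives were all 8 blood arrays, each array left out, the replicate number as a block, plate column as a covariate, array weights, variance trend, quantile normalization, a filter on dim probe sets, 1 probe set per gene and other fold minimums. Same-numbered arrays of the strains did not deviate together (correlations of −0.392, −0.285 and −0.223), so the numbers were not taken as pairs. The irradiated MG arrays were not used here.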

Additional observations from a re-analysis of the deposited data

Results flagged for a closer look

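Of the genes described that were called in blood, those whose strain difference in blood differed from that in the sham MG, tested as the difference of the 2 in limma, are given by that difference on the log2 scale, blood minus MG, each at the probe set it was described by. Among genes higher in BALB/c blood, the difference lay on the positive side for Npy (4.01), Emp1 (3.20), Scg5 (2.81), Fscn1 (2.71), Ctsl (2.59), Cbr2 (2.35), Dnah8 (2.26), Pla2g7 (2.20), Pcp4l1 (2.06), Trf (2.01), Arg1 (1.85), Fcna (1.84), Iigp1 (1.77), Vsig4 (1.73), Klra17 (1.61), Cpa3 (1.57), C4b (1.49), Glrx (1.31), H2-Ea (1.31), Slamf6 (1.26), Smc6 (1.24), Msh5 (0.84), Glo1 (0.68) and Lef1 (0.64). These genes separated the strains more towards BALB/c in blood than in the MG. Among genes lower in BALB/c blood, it lay on the negative side for Ly6d (−3.36), Oasl2 (−2.87), Klra8 (−2.86), Chil3 (−2.73), Chil4 (−2.68), Trim34a (−2.28), Diaph3 (−2.19), Gsr (−2.11), H2-Ob (−1.99), Klra7 (−1.88), Blvrb (−1.88), Fabp4 (−1.83), Ifi209 (−1.79), Trim12a (−1.72), H2-Q4 (−1.57), Hbb-y (−1.35), Marco (−1.24), Gp9 (−1.16), Prdx2 (−1.01), Gclm (−0.99), Klrc3 (−0.73), Xcl1 (−0.67) and Cx3cr1 (−0.66). In the remaining genes it ran against the direction in blood, as for H2-Q10 (3.48), Gbp2b (−2.69), Pdxdc1 (−1.76), Hal (−1.72), Rpgrip1 (1.49), H2-D1 (−1.12), Tmem87a (−1.0) and Mfap1a (0.59), where the MG difference was the larger one. Arg1, C4b, Glo1, Pla2g7, Pcp4l1 and Hbb-y were named after their values were seen. In the MG strain and plate cannot be told apart.

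In single groups of 4 BALB/c arrays, the gap between the farthest array and its neighbour, as a share of the group's range, was 0.875 for Alad, where BALB/c replicate 2 read 7.09 against 6.56 to 6.62, and 0.83 for Saa3, where replicate 4 read 10.47 against 11.20 to 11.35. For the means of gene lists it was 0.972 for chemokines and their receptors, where replicate 4 stood high, and 0.897 for heme and iron genes, where replicate 3 stood low. In all 110 groups were looked at, and chance sets apart about 1 in 20 groups.

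Outside the comparison, C57BL/6 replicate 4 had a mean of the liver list 8.74 log2 units above the median of the 7 arrays, against 2.19 in BALB/c replicate 2.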

How the results depend on the processing

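The count of 354 genes was within 1.5 times under array weights (471), a variance trend (390), quantile normalization (370), removal of dim probe sets (385), 1 probe set per gene (307) and no fold minimum (441), and 344 remained without the liver and resident macrophage genes, an alternative chosen after seeing the data. It was 68 with all 8 blood arrays, 19 with the plate column as a covariate and 185 at an absolute log2 fold change above 1. Leaving out 1 array gave 183 to 455 genes, with 455 without BALB/c replicate 1, and 228, 194 and 183 without C57BL/6 replicates 2, 1 and 3. The split moved from 173 higher and 184 lower to 155 and 218 under quantile normalization, to 259 and 199 without BALB/c replicate 1 and to 43 and 26 with all 8 arrays. With the replicate number as a block, 98 genes were called, 41 higher and 58 lower, and the numbers do not pair the arrays. Over the list members 55 were called, against 14 with all 8 arrays, 23 with the replicate block and 7 with the plate column, and 38 to 64 without 1 array. For the difference from the sham MG 475 genes were called, against 186 with all 8 blood arrays, 336 with the glands of 4 hr alone, 347 with those of 1 month alone and 349 to 598 without 1 array. With all 8 arrays Arg1 turned to −0.03 and Iigp1 to −0.54, and C57BL/6 replicate 4 read 12.29 and 11.10 for them. Of 435 list medians under alternatives, 392 moved by less than the spread between arrays and 43 by more. Other causes of these shifts were not tested. With 4 against 3 arrays, 3496 probe sets had an unadjusted p under 0.05, and the number of arrays limits the precision.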
